A study of Mus musculus with 2 samples.

Results

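Sialyltransferases are the enzymes that add sialic acid as the last sugar of glycan chains, and together with the enzymes that build and branch those chains they set the coat of a T cell. Here the RNA of 10 such enzymes was described in thymocytes of mice whose CD8 came from a constitutive transgene. The 10 genes were chosen by symbol, as sialyl- and glycosyltransferases known from thymocyte maturation, when earlier results of these data were known, and all 10 were listed among the 48321 genes of both count tables. They comprise *St3gal1*, *St3gal6*, *St6gal1*, *St6galnac1*, *St8sia1*, *St8sia4* and *St8sia6*, which are 7 of the 20 mouse sialyltransferases, and *Gcnt1*, *Mgat5* and *B4galnt1*, which add other sugars.

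The libraries were made from mature thymocytes of a single genotype, *MHC-II0:CD8ab Tg* on the C57Bl/6 background, in 2 replicates. These mice lacked I-Aβ and therefore MHC class II, carried 8a and 8b cDNAs at the *Rosa26* locus that were switched on when *Cd4-Cre* removed a stop cassette, and had both copies of the endogenous *Cd8a* and *Cd8b1* genes disrupted (*Cd8Δab*). By the study's account the transgenic CD8 was at a lower surface level than endogenous CD8, and the sorted cells were CD4- with low CD24 and high TCRβ. Ages were not given, the sample titles call the cells CD4-CD8- whereas the cell type field calls them CD8+, and wild-type libraries were not analysed here, so what follows compares genes and libraries and not genotypes.

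Total counts on genes were 16732644 in replicate 1 and 16245849 in replicate 2, so that 1 CPM (a count per 1000000 counts on genes) stood for about the same number of reads in both, and a floor of 3 counts equalled 0.179 and 0.185 CPM. The libraries were not alike in every respect. They differed in sex-linked genes, with *Xist* at 34 and 25266 counts and *Ddx3y* at 2450 and 0 counts, and mitochondrial and ribosomal RNA genes took 16.0% and 12.6% of the counts. *Cd8b1* stood at 775 and 786 CPM and *Cd4* at 0.717 and 1.66 CPM. In these mice the *Cd8b1* count may hold reads of the transgene and of the disrupted endogenous gene, which counts per gene do not tell apart. All 8 markers of mature T cells were above 1 CPM in both libraries, with summed levels of 3089 and 2789 CPM. Of the 8 markers of double-positive thymocytes, 4 were above 1 CPM in both libraries, and they summed to 21.6 and 21.9 CPM. Markers of B cells summed to 13.5 and 15.2 CPM, nearly all from *Cd79b*, with *Pax5* at 1 and 0 counts, and those of myeloid and dendritic cells to 13.4 and 15.4 CPM, mostly from *Csf1r* (9.74 and 11.8 CPM), with *Lyz2* at 0 and 2 counts. The 4 erythroid markers were at 0 in both, 5 of thymic epithelium summed to 3.71 and 4.19 CPM, and 3 of γδ T cells to 12.3 and 13.0 CPM. The 4 markers of NK and innate-like T cells summed to 114 CPM in each. These were bulk libraries, in which fewer cells of a type and less RNA per cell cannot be told apart.

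As background, thymocytes change their glycans as they mature. Immature cortical cells carry uncapped core 1 O-glycans, a galactose on N-acetylgalactosamine that the lectin PNA binds, and medullary cells lose this binding as ST3GAL1 caps the galactose with sialic acid. GCNT1 competes for the same core 1 structure and turns it into the branched core 2. In glycolipids, ST3GAL5 opens the route to the sialylated a-series gangliosides and B4GALNT1 can act with or without that sialic acid; mouse CD4+ T cells are known for a-series gangliosides and CD8+ T cells for the o-series, which bypasses ST3GAL5.

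All 10 enzymes were detected at 1 CPM or more in both libraries, and 8 of them at 5 CPM or more. Their median level was 72.4 CPM, beside 13.7 CPM over the 15949 tested genes, those whose counts in the libraries summed to 10 or more, and 8 of the 10 were at or above that median. Levels of different genes were compared after division by the length of each gene's annotated exons, as CPM per kb. On that scale the median of the 10 was 9.91, beside 5.71 over 11855 protein-coding genes, with 7 of 10 above it. *B4galnt1* stood at the top and *Gcnt1* and *St8sia6* at the bottom, a range of 352-fold in mean CPM per kb.

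**Figure D1:**
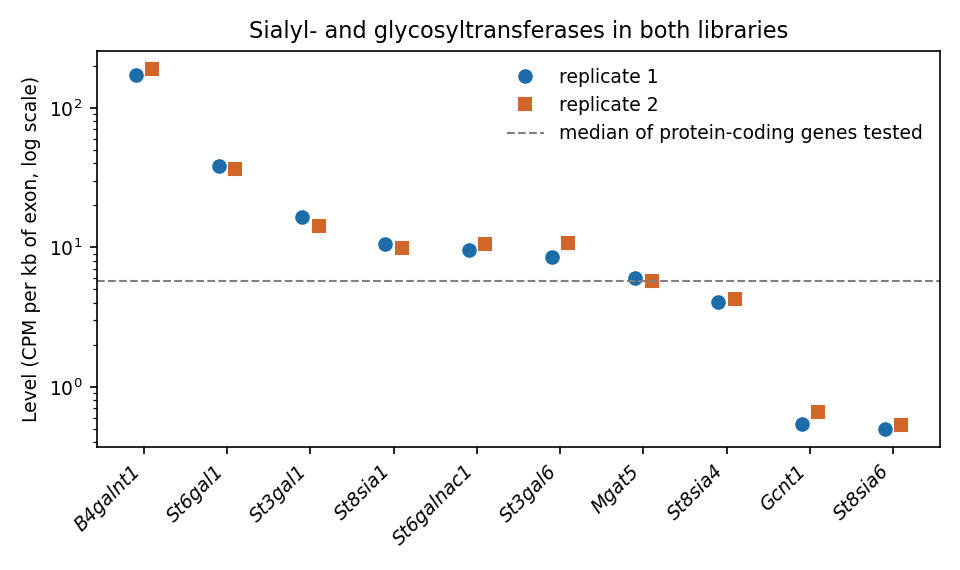
Level of each of the 10 enzymes in CPM per kb of exon (log scale) in replicate 1 (circles) and replicate 2 (squares), ordered by mean, with the median of protein-coding genes as a dashed line at 5.71. *B4galnt1* lies near 181, *Mgat5* near the median at 5.91, and *Gcnt1* and *St8sia6* lie near 0.601 and 0.515.

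Promoter sequence was at hand in RefSeq (GRCm38.p6) for 7 of the 10, in windows of 300 bases that run from 250 bases before to 50 bases after a start; none was given for *B4galnt1*, *St3gal1* or *St6galnac1*. Windows of 3 enzymes are shown because they set promoter composition beside RNA level. They are *St8sia6*, the lowest of the 10 per kb, *St8sia1*, another α2,8-sialyltransferase with a mean of 10.3 CPM per kb, and *St6gal1*, the second highest. CpG dinucleotides, the letters CG read 5′ to 3′, are in capitals.
St8sia6, chr2:13793471-13793770, minus strand: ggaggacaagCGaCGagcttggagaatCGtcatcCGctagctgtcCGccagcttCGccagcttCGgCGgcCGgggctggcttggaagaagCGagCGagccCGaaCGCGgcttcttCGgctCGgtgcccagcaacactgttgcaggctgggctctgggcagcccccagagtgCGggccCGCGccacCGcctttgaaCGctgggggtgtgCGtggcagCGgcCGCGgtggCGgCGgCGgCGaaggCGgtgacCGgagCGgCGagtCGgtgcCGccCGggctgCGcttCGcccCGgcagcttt
St8sia1, chr6:142964403-142964702, minus strand: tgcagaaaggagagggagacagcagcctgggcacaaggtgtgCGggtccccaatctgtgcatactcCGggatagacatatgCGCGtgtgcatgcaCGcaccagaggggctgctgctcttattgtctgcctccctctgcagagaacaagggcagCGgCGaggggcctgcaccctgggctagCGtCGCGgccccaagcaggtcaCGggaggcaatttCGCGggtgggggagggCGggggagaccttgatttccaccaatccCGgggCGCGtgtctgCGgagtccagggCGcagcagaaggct
St6gal1, chr16:23225771-23226070, plus strand: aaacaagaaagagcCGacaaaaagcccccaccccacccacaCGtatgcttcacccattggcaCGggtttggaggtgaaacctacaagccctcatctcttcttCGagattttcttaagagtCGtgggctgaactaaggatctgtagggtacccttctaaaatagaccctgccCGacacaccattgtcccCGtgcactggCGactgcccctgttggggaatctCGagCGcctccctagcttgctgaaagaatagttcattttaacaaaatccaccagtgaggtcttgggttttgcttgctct

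The *St8sia6* window held 39 CpGs and was 72.0% G or C, and only 4.45% of the 32851 promoter windows in the table held as many. The *St8sia1* window held 19 CpGs, and the window of *St6gal1* shown, the richest of its 3 starts, held 10. The other starts of *St6gal1* held 7 and 6, near the median of 7 over all windows. Of the enzymes whose windows are not shown, *St8sia4* held 22 CpGs, *Mgat5* 18, the 2 starts of *St3gal6* 20 and 3, and the 3 starts of *Gcnt1*, the second lowest gene per kb, 3, 16 and 2. *St8sia6* thus had both the most CpGs and the lowest level per kb among the 7 enzymes with a window. *Gcnt1*, the lowest by CPM, had few at 2 of its 3 starts. These genes were close in level, on 64 and 66 counts for *St8sia6* and 52 and 62 for *Gcnt1*, so which was lower is uncertain. Matches to 5 short motifs were also searched on both strands: TGTGGT of RUNX factors, CCGGAAG of ETS factors, CAGCTG of E-proteins (an E-box), CTTTGA of TCF/LEF factors and AGATAA of GATA factors. *St8sia4* held the RUNX and E-box letters, which occur in 16.8% and 16.3% of all windows. *St8sia6* held CTTTGA (16.0% of all windows), 1 of 3 windows of *St6gal1* held AGATAA (11.2%), and 1 of 2 windows of *St3gal6* held the RUNX, TCF/LEF and GATA letters. CCGGAAG, which 8.86% of all windows held, was in none of the 12 windows of these enzymes. A match describes the letters only and says nothing of binding.

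*B4galnt1* encodes the synthase that adds N-acetylgalactosamine to lactosylceramide, GM3 or GD3, giving GA2, GM2 or GD2. Its gene lies on chr10:127165225-127172330 of GRCm38, plus strand. Its counts were 9901 and 10687, or 592 CPM (95% Wilson interval 580.2 to 603.5) and 658 CPM (645.5 to 670.4), with a mean of 625 ± 46.7 CPM (SD, n = 2). It ranked 155 among all genes by CPM and exceeded 99.0% of tested genes. Per kb it reached 171 and 190 CPM, a mean of 181 ± 13.5 CPM per kb (SD, n = 2), above 98.8% of protein-coding genes. Both libraries placed it above every other enzyme of the set. Annotated exons of *B4galnt1* overlap *Slc26a10* on the opposite strand by 715 bases, and *Slc26a10* had 169 and 199 counts. Without strand, reads in the overlap cannot be told apart between the genes, and the ratio of their counts was 58.6 and 53.7.

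*St8sia1*, on chr6:142821545-142964452, encodes GD3 synthase, which adds an α2,8-linked sialic acid to GM3. It stood at 99.4 and 92.4 CPM (1663 and 1501 counts), a mean of 95.9 ± 4.95 CPM (SD, n = 2), or 10.6 and 9.89 CPM per kb. The GM3 it acts on is made by ST3GAL5, and *St3gal5* had 9 and 11 counts, which is 0.538 and 0.677 CPM. Both counts were above the floor of 3. Per kb, *St8sia1* exceeded *St3gal5* by 51.8-fold and 38.2-fold, and *B4galnt1* exceeded it by 834-fold and 736-fold; with 9 and 11 counts in the denominator, these ratios carry a wide counting error.

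The other ganglioside enzymes were measured in a fixed list of 8. *Ugcg*, which makes glucosylceramide and so opens the pathway, stood at 276 and 309 CPM, a mean of 293 ± 23.0 CPM (SD, n = 2). *B4galt5*, a lactosylceramide synthase, stood at 110 and 108 CPM, whereas *B4galt6*, which catalyses the same step, had 8 and 7 counts. The pathway was thus represented at its entry and at B4GALNT1 but barely at the GM3 step. *B3galt4*, which adds galactose to the products of B4GALNT1, was at 23.8 and 23.6 CPM, and *St3gal2*, which can sialylate that galactose, was at 6.63 and 6.22 CPM. *B4galnt1* exceeded *Ugcg* per kb by 3.23-fold in replicate 1 and 3.21-fold in replicate 2.

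**Figure D2:**
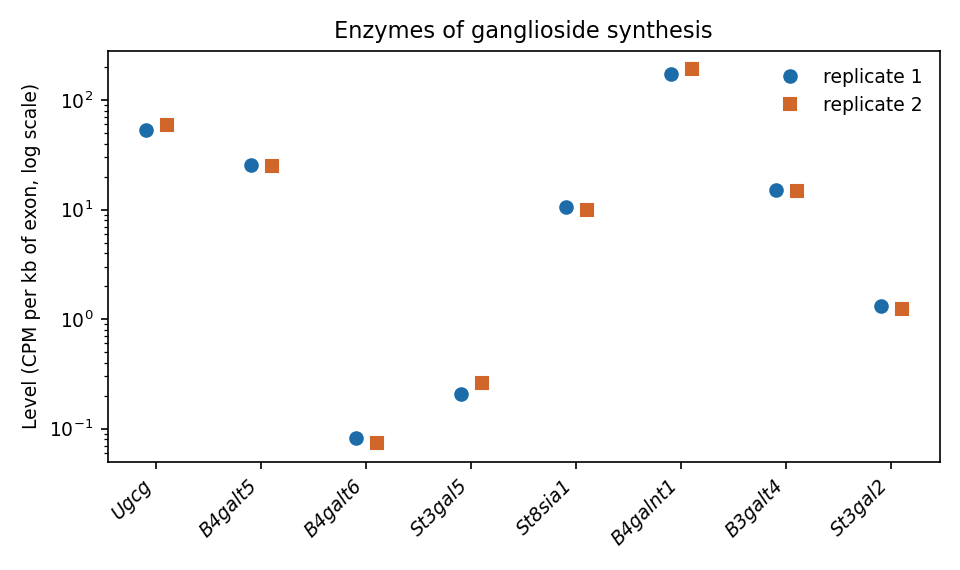
Level in CPM per kb of exon (log scale) of 8 enzymes of ganglioside synthesis in replicate 1 (circles) and replicate 2 (squares), from the first step at left. *B4galnt1* lies at 171 and 190 CPM per kb, *Ugcg* at 53.0 and 59.3, and *St3gal5* at 0.205 and 0.259.

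On O-glycans, *St3gal1*, on chr15:67102875-67176830, stood at 113 CPM in replicate 1 (1893 counts, Wilson interval 108 to 118) and 97.0 CPM in replicate 2 (1576 counts, 92.3 to 102). The counting intervals of the libraries did not overlap. Its mean was 105 ± 11.4 CPM, or 15.3 ± 1.66 CPM per kb (SD, n = 2), the third highest of the 10 and above 76.5% of protein-coding genes. *Gcnt1*, the core 2 enzyme, on chr19:17326141-17372844, had 52 and 62 counts, which is 3.11 and 3.82 CPM. Per kb *Gcnt1* reached 0.540 and 0.663 CPM and exceeded only 16.9% of protein-coding genes. The enzyme that caps core 1 therefore exceeded the enzyme that branches it in both libraries, by 30.6-fold and 21.4-fold in CPM per kb.

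The 14 enzymes of the O-glycan core list give the context. *C1galt1*, which makes core 1 itself, was at 83.0 and 82.1 CPM and exceeded *Gcnt1* by 25.2-fold and 20.3-fold per kb. Among the transferases that begin O-glycans, *Galnt6* was highest at 354 and 326 CPM, followed by *Galnt10* at 162 and 177 CPM and *Galnt1* at 152 and 149 CPM. Enzymes that can also make core 2 were no higher than *Gcnt1*: *Gcnt3* had 0 counts in both libraries, with upper Wilson limits of 0.230 and 0.236 CPM, and *Gcnt4* had 23 and 11 counts. Of these 14 genes, 11 were at 1 CPM or more in both libraries, and *Gcnt1* was the only one of the 3 core 2 enzymes to pass 1 CPM in both. *Fut7*, a fucosyltransferase of selectin ligands that acts on core 2 chains, had 21 and 32 counts, and *Fut4* had 0 and 1.

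*St6galnac1* makes the sialyl-Tn structure by adding α2,6-linked sialic acid to the first N-acetylgalactosamine of an O-glycan, and lies on chr11:116765025-116775507. It had 386 and 413 counts, or 23.1 and 25.4 CPM, with a mean of 24.2 ± 1.66 CPM (10.1 ± 0.696 CPM per kb; SD, n = 2). The libraries were close, and the gene lay above 65.5% of protein-coding genes. Of its 50-base windows, 34.9% also occur in the pseudogene *Gm11735*, which had 59 and 71 counts, so its count is uncertain to that extent. *St6galnac2*, which acts on core 1, was higher, at 159 and 155 CPM (2.33-fold and 2.06-fold above *St6galnac1* per kb). *St6galnac4*, which acts on sialylated core 1, was at 54.6 and 63.5 CPM.

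*St8sia6*, on chr2:13651021-13794064, adds α2,8-linked sialic acid mainly to O-glycans. It had 64 and 66 counts, or 3.82 and 4.06 CPM, and at 0.499 and 0.530 CPM per kb it was the lowest of the 10 in both libraries. *Gcnt1*, with 52 and 62 counts, was close above it per kb and below it by CPM. Wilson intervals of the pair overlapped in CPM in both libraries, so their order is uncertain. *St8sia4*, on chr1:95587682-95667571, encodes a polysialyltransferase, which extends α2,8-linked chains. It had 1374 and 1398 counts, or 82.1 and 86.1 CPM (mean 84.1 ± 2.78; SD, n = 2). Per kb it exceeded *St8sia6* by 8.19-fold and 8.08-fold, and its mean of 4.19 CPM per kb rests on an exon union of 20091 bases, against 10027 bases in its longest transcript, on which its level was 8.39 CPM per kb. The remaining members of the ST8SIA group were near or at nothing, with *St8sia3* at 0 and 1 count and *St8sia2* and *St8sia5* at 0 counts in both.

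On N-glycans, *St6gal1*, on chr16:23224740-23360350, adds α2,6-linked sialic acid to the terminal galactose and makes the ligand of the B cell lectin CD22. It had 3137 and 2897 counts, or 187 and 178 CPM (mean 183 ± 6.47; SD, n = 2). Per kb it reached 38.1 and 36.3 CPM, above 91.5% of protein-coding genes and second of the 10 in both libraries. *St6gal1* is also abundant in B cells, whose 5 markers summed to 13.5 and 15.2 CPM, with *Cd79b* at 196 and 227 counts and *Pax5* at 1 and 0 counts; their part in the level of *St6gal1* was not tested. *St3gal6*, on chr16:58468125-58524243, adds α2,3-linked sialic acid to the same kind of chain. It stood at 53.0 CPM in replicate 1 (887 counts, Wilson interval 49.6 to 56.6) and 66.4 CPM in replicate 2 (1079 counts, 62.6 to 70.5), intervals that did not overlap. *St6gal1* exceeded it per kb by 4.44-fold and 3.37-fold. With the longest transcript the gap was smaller, with *St6gal1* at 41.6 and 39.6 CPM per kb and *St3gal6* at 12.9 and 16.1. *St3gal6* overlaps *Dcbld2* on the opposite strand by 1603 of its 6172 exon bases, and *Dcbld2* had 58 and 64 counts.

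*Mgat5*, on chr1:127205015-127488336, adds the β1,6 branch on which long lactosamine chains and galectin ligands grow. It had 1041 and 964 counts, or 62.2 and 59.3 CPM (mean 60.8 ± 2.03; SD, n = 2), and at 6.05 and 5.77 CPM per kb lay just above the median of protein-coding genes. The enzymes that act before it were higher. *Mgat1*, which starts the first branch, exceeded it per kb by 3.06-fold and 3.82-fold, and *Mgat2*, which starts the second, by 5.88-fold and 6.54-fold. *Mgat4a*, which adds another branch, was at 0.867 and 1.00 of the level of *Mgat5* per kb of exon union. That order depended on the length used. With the longest transcript *Mgat4a* was higher, at 9.31 and 10.3 CPM per kb against 7.37 and 7.03 for *Mgat5*. Of 10 enzymes of N-glycan branching, 8 were at 1 CPM or more in both libraries, led by *Man2a2* at 168 and 175 CPM and *Man2a1* at 129 and 145 CPM, and *Mgat3* and *Mgat5b* were at 0 counts in both. *B4galt1*, which begins lactosamine on these branches, was at 182 and 186 CPM and led a list of 9 lactosamine enzymes, 6 of which were at 1 CPM or more in both libraries.

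From highest to lowest mean CPM per kb the order was *B4galnt1* (181), *St6gal1* (37.2), *St3gal1* (15.3), *St8sia1* (10.3), *St6galnac1* (10.1), *St3gal6* (9.67), *Mgat5* (5.91), *St8sia4* (4.19), *Gcnt1* (0.601) and *St8sia6* (0.515). For every pair of neighbours in this order, both libraries of the higher gene lay above both of the lower, except *St8sia1* with *St6galnac1* and *St6galnac1* with *St3gal6*, whose libraries overlapped. The middle of the order also depended on the length used. With the longest annotated transcript *St3gal6* (14.5) moved above *St8sia1* (10.7) and *St6galnac1* (10.1), and *St8sia4* (8.39) above *Mgat5* (7.20). With shared 50-base windows taken out of the length, a setting chosen after seeing the data, *St6galnac1* (15.6) stood beside *St3gal1* (15.5). In that setting *St3gal6* (12.7) also moved above *St8sia1* (10.4). The first and second places and the last 2 were the same under all 3 lengths. The order of *Gcnt1* and *St8sia6* rests on few counts, was reversed by CPM, and is uncertain.

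The 20 sialyltransferases summed to 823 CPM in replicate 1 and 819 CPM in replicate 2. This closeness held for plain totals: with TMM factors the sums were 845 and 797 CPM, with DESeq2 size factors 840.3 and 802 CPM, and without mitochondrial and ribosomal RNA genes 979 and 937 CPM, each lower in replicate 2. Of the summed level per kb, the 7 sialyltransferases described here took 66.2% and 64.8%. *St6gal1* took 28.7% and 27.2%, *St6galnac2* 16.9% and 16.4%, and *St3gal1* 12.4% and 10.6%. *St6gal1* was first per kb of exon union, at 27.9 ± 1.05% (SD, n = 2), and first by counts at 22.3%, but with the longest transcript it took 22.5% and *St6galnac2* 23.9%, so which of the pair led depended on the length. By subfamily, the ST6GALNAC group took 31.9 ± 0.958%, ST3GAL 28.9 ± 0.384%, ST6GAL 27.9 ± 1.05% and ST8SIA 11.2 ± 0.297% (SD, n = 2). Without length correction ST8SIA took 22.4%, about as much as ST6GAL at 22.3%, since *St8sia1* and *St8sia4* have long transcripts, and with the longest transcript ST6GALNAC took 38.7% and ST8SIA 10.8%. ST6GAL rested on *St6gal1* alone, since *St6gal2* had 0 counts in both libraries.

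**Figure D3:**
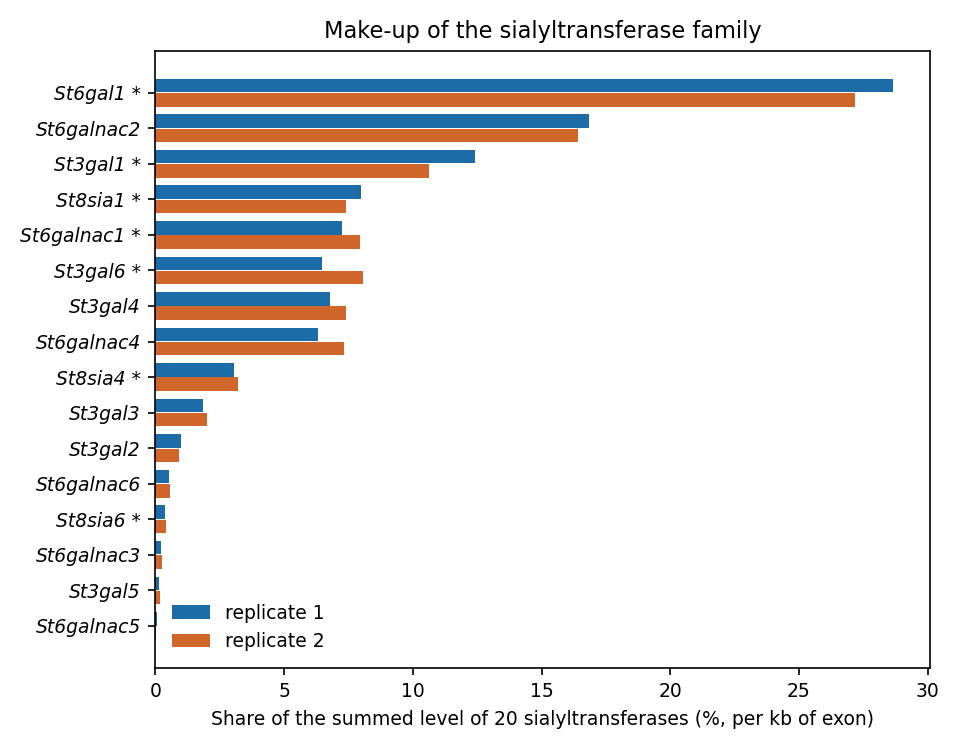
Share of the summed CPM per kb of 20 sialyltransferases (%, linear axis from 0) taken by each of the 16 that had more than 1 count in all, in replicate 1 and replicate 2; asterisks mark the 7 described here. *St6gal1* is longest at 28.7% and 27.2%, and *St8sia6* and *St3gal5* are under 1% in both.

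To see how far the replicates differed, every gene was tested between them with an exact binomial test (two-sided) of its counts given the library totals and Benjamini-Hochberg adjustment over the 15949 genes. This compares libraries and not conditions. The labels do not say how many animals each replicate came from; the levels of *Xist* and *Ddx3y* show that both did not come from the same single animal. The p-values measure how far a gene's counts in these samples depart from counting error, given the library totals. They do not measure the spread between animals. None of the 10 enzymes differed by 2-fold at an adjusted p under 0.05, a rule that 1.52% of all tested genes passed. Without the fold limit 3 of 10 passed the exact test, beside 16.3% of all tested genes. Of the 3 enzymes, 2 were higher in replicate 2 (13.5% of all genes) and 1 was lower (2.82%). An unadjusted p under 0.05 was found for 4 of the 10. With a minimum of 100 counts, which all 10 met, 2622 of 10969 genes passed without the fold limit and 55 with it. That larger share without the fold limit is the nearer background for the 3 of 10. The median absolute log2 ratio was 0.12 over the 10 and 0.17 over all tested genes, or 0.12 over those with at least 100 counts. With edgeR's exact test, which allows for a biological coefficient of variation of 0.1 between replicates, 0 of 10 passed with or without adjustment. That value was fixed, and is close to the 0.105 estimated from these same libraries. The test thus set the libraries against about their own spread, and its outcome is no separate evidence that the enzymes were alike.

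*B4galnt1* was higher in replicate 2 by 0.15 on the log2 scale (adjusted p = 2.31e-12, exact binomial test), *St3gal6* was higher by 0.33 (adjusted p = 1.78e-05), and *St3gal1* was lower in replicate 2, with a log2 ratio of -0.22 (adjusted p = 0.000139). These were differences beyond counting error and well under 2-fold. *Gcnt1* had a log2 ratio of 0.30, close to that of *St3gal6*, but from 52 and 62 counts (adjusted p = 0.564, exact binomial test). For the other 6 the log2 ratios lay between -0.11 for *St8sia1* (adjusted p = 0.158, exact binomial test) and 0.14 for *St6galnac1* (adjusted p = 0.413, exact binomial test). The median log2 ratio was 0.08 over all tested genes and 0.08 over the 10, with 6 enzymes higher in replicate 2 and 4 lower. That shift depended on scaling: with TMM factors the median over all genes was -0.003, and *St8sia4* went from 0.07 to -0.011. *B4galnt1* went from 0.15 to 0.074 with TMM (adjusted p = 0.00413, exact binomial test), and stood at 0.09 with DESeq2 size factors. Under TMM *St6gal1* (-0.15, adjusted p = 0.00111) and *St8sia1* (-0.18, adjusted p = 0.00597, exact binomial test) also passed, both lower in replicate 2.

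**Figure D4:**
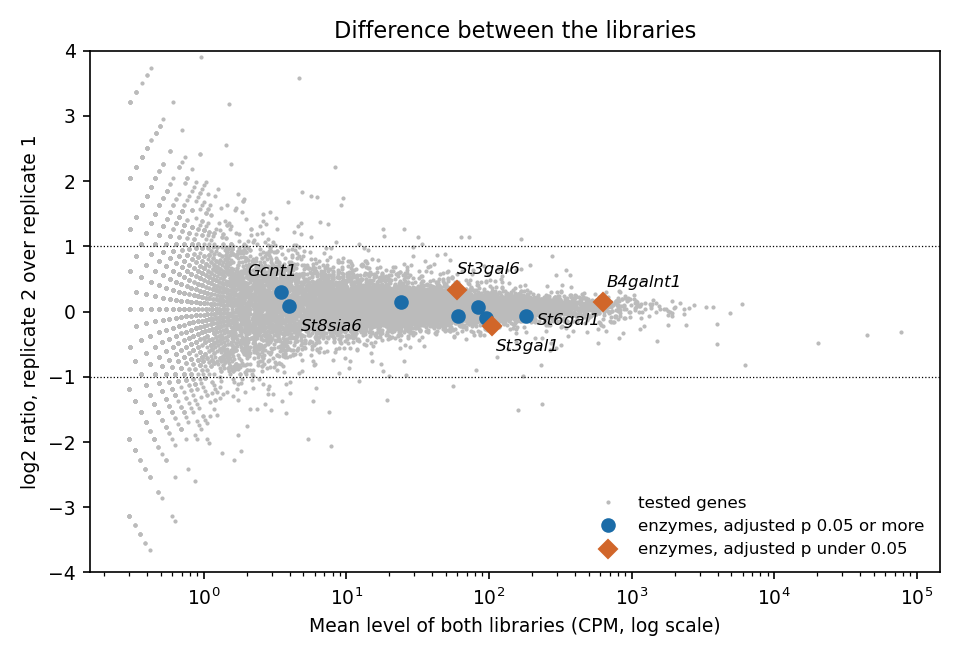
log2 ratio of replicate 2 over replicate 1 against mean CPM (log scale) for the tested genes (grey) and the 10 enzymes (blue circles, adjusted p of 0.05 or more; orange diamonds, under 0.05), with dotted lines at 2-fold. All 10 enzymes lie between -0.22 and 0.33; 15 genes with 0 counts in a library and 6 beyond 4 on the log2 axis are not drawn.

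Over all genes 242 differed at 2-fold, 92 higher in replicate 1 and 150 in replicate 2; with TMM factors there were 198, of which 100 and 98. Differences past the exact test without a fold limit were mostly higher in replicate 2 with plain totals (2146 against 450 lower), and nearly even with TMM factors (812 against 876), so the direction of small differences rests on the scaling. As shares of all tested genes, 13.5% passed as higher and 2.82% as lower with plain totals. With TMM factors 5.09% passed as higher and 5.49% as lower. Of the lists above, 2 of 8 ganglioside enzymes passed as higher in replicate 2 (*B4galnt1* and *Ugcg*) and 0 as lower, and with TMM 1 as higher (*B4galnt1*) and 1 as lower (*St8sia1*). Of the O-glycan core enzymes *Galnt10* passed as higher and *Galnt6* as lower, and with TMM only *Galnt6*. Of the N-glycan enzymes *Mgat1* and *Man2a1* passed as higher, and with TMM only *Mgat1*. Of the lactosamine enzymes *B3gnt5* passed as lower with TMM factors but not with plain totals. Other genes moved between the libraries beside the enzymes. Of the 8 mature T cell markers 5 were lower in replicate 2, beside 2.82% of all genes in that direction, and 8 with TMM, beside 5.49%; among the 5 were *S1pr1*, the receptor used to leave the thymus (318 and 227 CPM, log2 ratio -0.48), and *Ccr7*, a chemokine receptor of mature thymocytes (277 and 225 CPM, log2 ratio -0.30). Among the 4 innate-like markers, *Ncr1* differed by 2-fold or more, with 45 and 112 counts (log2 ratio 1.36, adjusted p = 8.24e-07, exact binomial test). *Klrb1c* was also higher in replicate 2 (log2 ratio 0.31, adjusted p = 0.0174, exact binomial test). *Klrd1* went the other way, at 71.4 and 58.0 CPM (log2 ratio -0.30, adjusted p = 4.03e-05, exact binomial test). With TMM factors *Ncr1* still passed as higher and *Klrd1* as lower, and *Klrb1c* did not pass. With totals that leave out mitochondrial and ribosomal RNA genes, the log2 ratio of *St3gal1* was -0.28 (adjusted p = 6.65e-07, exact binomial test), that of *St3gal6* 0.27 (adjusted p = 0.000911) and that of *B4galnt1* 0.096 (adjusted p = 6.12e-05). The part of sex and of the T cell and innate-like markers in these differences was not tested.

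The supply of sialic acid was measured in 6 genes, of which 5 were at 1 CPM or more in both libraries. *Cmah*, which turns the sialic acid Neu5Ac into Neu5Gc, was highest at 420 and 489 CPM and was higher in replicate 2 by 0.22 on the log2 scale (adjusted p = 3.70e-18, exact binomial test). *Nans*, which makes sialic acid phosphate, was at 71.6 and 80.7 CPM, and *Gne*, the first enzyme of the route, at 48.5 and 57.0 CPM. *Cmah*, *Nans* and *Gne* passed the exact test as higher in replicate 2, a direction in which 13.5% of all genes passed, at log2 ratios from 0.17 to 0.23, and none was different by 2-fold. With TMM factors only *Cmah* passed, in a direction in which 5.09% of all genes did. *Cmas*, which activates sialic acid, was at 50.7 and 51.0 CPM, whereas *Nanp*, the phosphatase between them, had 1 count in each library. Of 4 sialidases, which remove sialic acid, *Neu1* was highest at 54.4 and 61.2 CPM, *Neu3* followed at 10.3 and 9.60 CPM, and *Neu2* and *Neu4* were at or under the floor of 3 counts.

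RNA of proteins known to carry these glycans was abundant, and the proteins themselves were not measured here. All 11 carriers in the list were above 1 CPM in both libraries, led by *Ptprc* (CD45) at 2495 and 2582 CPM, *Thy1* at 857 and 914 CPM and *Cd8b1*, whose count may include the transgene. CD45 and CD8β are known carriers of the O-glycans that ST3GAL1 caps. Of the 11, 6 were lower and 4 higher in replicate 2 by the exact binomial test, beside 2.82% and 13.5% of all genes. With TMM factors 8 were lower and 1 higher, beside 5.49% and 5.09% of all genes. None differed by 2-fold; at their high counts the test passes small differences. Of 10 lectins that bind such glycans, galectins and siglecs, 4 were at 1 CPM or more in both libraries, led by *Lgals1*, *Lgals9* and *Lgals8* at means of 181, 173 and 110 CPM.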

How the data were processed

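RNA-seq of sorted thymocytes of 1 genotype was analysed. The authors made poly(A) libraries of 2 replicates, mapped single-end reads of 50 bases to mm10 with TopHat 2.1.1 and deposited raw counts per gene from HTSeq 0.6.1; the strand setting is not given in the sources used here. Lines of reads assigned to no gene, ambiguous or not uniquely aligned were left out. Reads on no gene were 55.9% in both libraries of those on genes, on no gene or ambiguous. Alignments that were not unique, outside that share, numbered 27736636 in replicate 1 and 24451411 in replicate 2.

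The 10 enzymes and all gene lists were chosen with earlier results of these data known. Counts were divided by the total on genes (CPM), and per kb by the exon union of GENCODE M21 (GRCm38). Named genes were the 10 enzymes, any sialyltransferase, up to 4 of the highest genes per list, genes at or under 3 counts and genes called different; *Cd4*, *Cd8b1*, *Xist*, *Ddx3y*, overlapping genes, *B4galt6*, *B3galt4*, *Mgat4a*, *Gcnt4*, *Fut7*, *S1pr1*, *Ccr7*, *Cd79b*, *Csf1r*, *B3gnt5*, *Lyz2* and *Pax5* were named after their values were seen. Exact binomial tests used scipy 1.17.1 with Benjamini-Hochberg adjustment; edgeR 4.0.16 and DESeq2 1.42.0 gave alternative library sizes, and edgeR a further test. On simulated counts the exact test called all 200 genes set to a 4-fold change, and 2 that were not, among 16006 tested. Those counts held counting error only, without variation between replicates, and the changed genes were drawn from genes with at least 200 counts. The simulation therefore gives no rate of false or missed calls for the real libraries or for genes with fewer counts. Wilson intervals and floors cover counting error only. Other alternatives were totals without 393 mitochondrial and ribosomal RNA genes, minimums of 1 and 100 counts, other CPM thresholds, other lengths and leaving out a library. Some genes of the lists are not reported here by name.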

Additional observations from a re-analysis of the deposited data

How the results depend on the processing

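With 1 genotype and 2 libraries, no group difference could be tested and 10 counts or fewer gave only coarse levels. No paired analysis was possible because there is 1 group. The number of enzymes at an adjusted p under 0.05 was 3; it was 5 with TMM factors, 5 with DESeq2 size factors and 5 with totals without mitochondrial and ribosomal RNA genes, where *St6gal1* and *St8sia1* were added, and 0 when edgeR's test allowed for a replicate variation of 0.1. Of all 15949 tested genes, 2596 passed with plain totals, 1688 with TMM factors and 1731 with DESeq2 size factors. Without mitochondrial and ribosomal RNA genes in the totals 1750 passed, and 74 passed edgeR's test. The log2 ratio of *St8sia4* turned from 0.07 to -0.011 with TMM factors. No enzyme differed by 2-fold, and all 10 had the same direction apart from *St8sia4*, under every alternative run. Over all genes the 242 differences of 2-fold became 55 with a minimum of 100 counts and 60 with edgeR's exact test. The share of *St6gal1* in the sialyltransferases moved from 27.9% to 22.5% with the longest transcript and 22.3% without length correction, and the summed sialyltransferase level from 821 to 958 CPM with totals without mitochondrial and ribosomal RNA genes, a change that follows from the smaller total. The SD between libraries of that sum was 2.64 CPM with plain totals, 34.2 with TMM, 27.4 with DESeq2 size factors and 29.8 without mitochondrial and ribosomal RNA genes. The cause of the other changes was not tested. The estimated biological coefficient of variation was 0.105, and 0.105 and 0.102 with minimums of 1 and 100 counts. With either replicate left out, only levels were given, since a single library allows no test.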
